A study of Homo sapiens with 2 samples.

Results

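Solute carriers are the membrane proteins that move amino acids, sugars, ions, metals, vitamins and metabolites across the plasma membrane and the membranes of organelles by facilitated diffusion, exchange or cotransport. They are numbered in families by sequence and substrate, and the SLC25 family lies in the inner mitochondrial membrane. Hepatocytes rely on them for amino acid supply, glucose release, citrate and vitamin uptake and the shuttles that feed the urea cycle. The genes described here are all those listed with a single symbol that begins with SLC and a digit, other than SLC2A1, which gave 51 of the 2792 genes of the table. They were measured by 599 probe sets, 2 to 26 per gene with a median of 11. The rule also takes in 3 genes that encode no carrier. SLC9A3R1 and SLC9A3R2, now named NHERF1 and NHERF2, encode scaffold proteins that bind carriers, and SLC6A10P is a pseudogene of the creatine transporter SLC6A8. The other 48 genes encode carriers.

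The cells were HepG2, a human hepatoma line, and were transfected with an LNA (an oligonucleotide with locked nucleic acid bases) to TUC338 or with a control LNA. TUC338 is a noncoding RNA that carries an ultraconserved element. The groups are called TUC338 knockdown and Control. Each group was 1 array, so each value below compares 2 arrays, no test between conditions was possible and no p-value is given. Both groups were transfected HepG2 cells grown on collagen, and an untransfected culture was not analysed here. Probe sets cover roughly 1 exon each, and the errors given are SDs over the probe sets of a gene on the same 2 arrays, not over cultures.

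Over all probe sets the knockdown array had a median intensity of 507 and the control array one of 422. A gene's value is the mean, over its probe sets, of the difference in log2 intensity, knockdown minus control. The median gene was higher on the knockdown array by 0.28, and differences below are relative to that median gene unless called deposited values. A gene less than 0.28 below the median gene was therefore brighter on the knockdown array in deposited values. Of the hepatocyte markers 6 of 12 were in the table, and their median was -0.06. ALB was at -0.08, APOB at -0.03, ASS1 at -0.08, TF at 0.0017 and FGG at 0.27. CPS1 was lower, at -0.42, with 39 of its 44 probe sets below the median gene. Of the 7 fibroblast or stellate markers 3 were in the table. Their median was 0.05, with ACTA2 at 0.05, PDGFRB at 0.22 and COL1A1 at -0.90, and the part of other cells in the results was not tested. None of the 4 endothelial or 5 leukocyte markers had a probe set with a single symbol. In such bulk RNA fewer cells and less RNA per cell cannot be told apart.

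The SLC genes as a group lay close to the median gene, with members spread to both sides. Their median was -0.03, against 0 for all genes by construction, and 23 lay above and 28 below the median gene. That small negative median turned positive with the median over probe sets (0.0079), with the brightest probe set (0.02) and in deposited values (0.25). In deposited values 41 of the 51, or 80.4%, were brighter on the knockdown array, next to 83% of all genes. The means of the SLC genes had an SD over genes of 0.34 and ran from -0.91 for SLC6A8 to 0.88 for SLC25A25, while those of all genes had an SD of 0.31. For 25 SLC genes the mean was within 0.2 (log2) of the median gene, which is 49.0% of the group, compared with 54.5% of all genes.

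**Figure D1:**
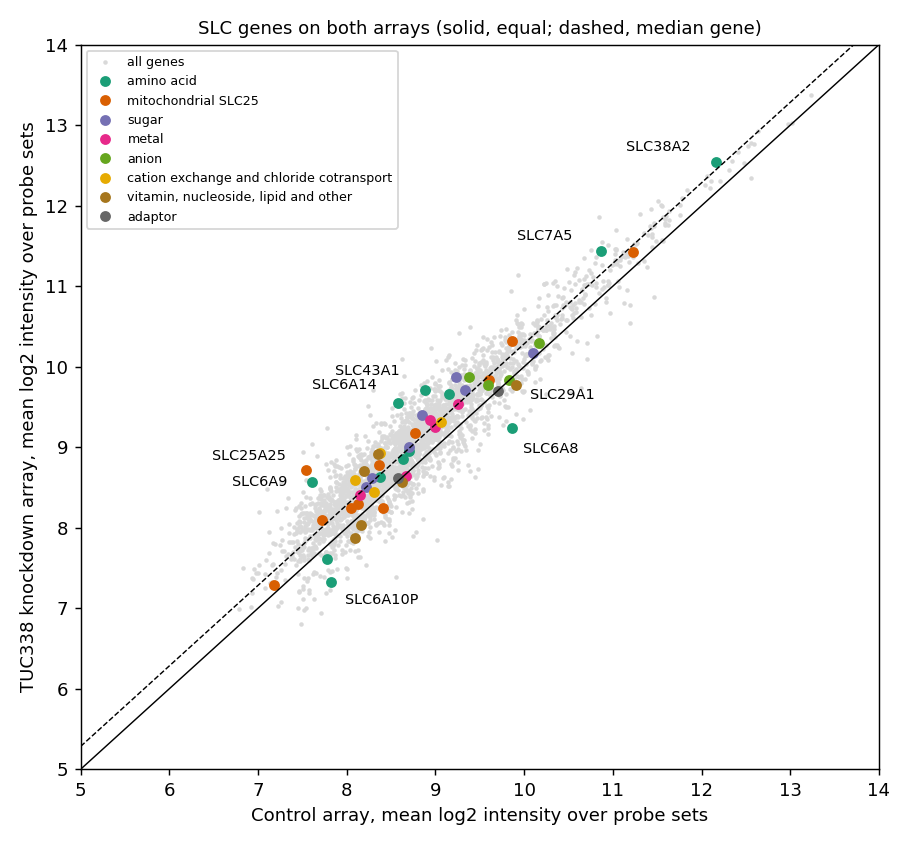
Mean log2 intensity over the probe sets of each gene on the Control array (horizontal) and the TUC338 knockdown array (vertical), with SLC genes coloured by class over the 2792 genes in grey. The solid line marks equal intensity and the dashed line the median gene, 0.28 higher on the knockdown array; SLC25A25, SLC6A14 and SLC6A9 lie above the dashed line and SLC6A8 and SLC6A10P below the solid one.

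At a difference of at least 1.5-fold from the median gene, 3 SLC genes were higher and 2 lower. The higher ones were SLC25A25, SLC6A14 and SLC6A9, in a table in which 2.26% of all genes passed that line. The lower ones were SLC6A8 and SLC6A10P, where 3.9% of all genes passed. No SLC gene reached 2-fold. With each gene represented by its brightest probe set, none of the 51 was 1.5-fold higher, and SLC25A25, SLC6A9 and SLC6A14 stood at 0.14, 0.16 and 0.30 above the median gene on that scale. Of the 49 SLC genes with at least 4 probe sets, 5 had all probe sets above the median gene (SLC25A25, SLC6A14, SLC6A9, SLC43A1 and SLC2A2), and 7.33% of all such genes did. Another 3 had every probe set below it (SLC29A1, SLC25A4 and SLC19A1), next to 9.01% of all such genes. These shares of the SLC genes are counts of a few genes and were not tested against the rest of the table.

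**Figure D2:**
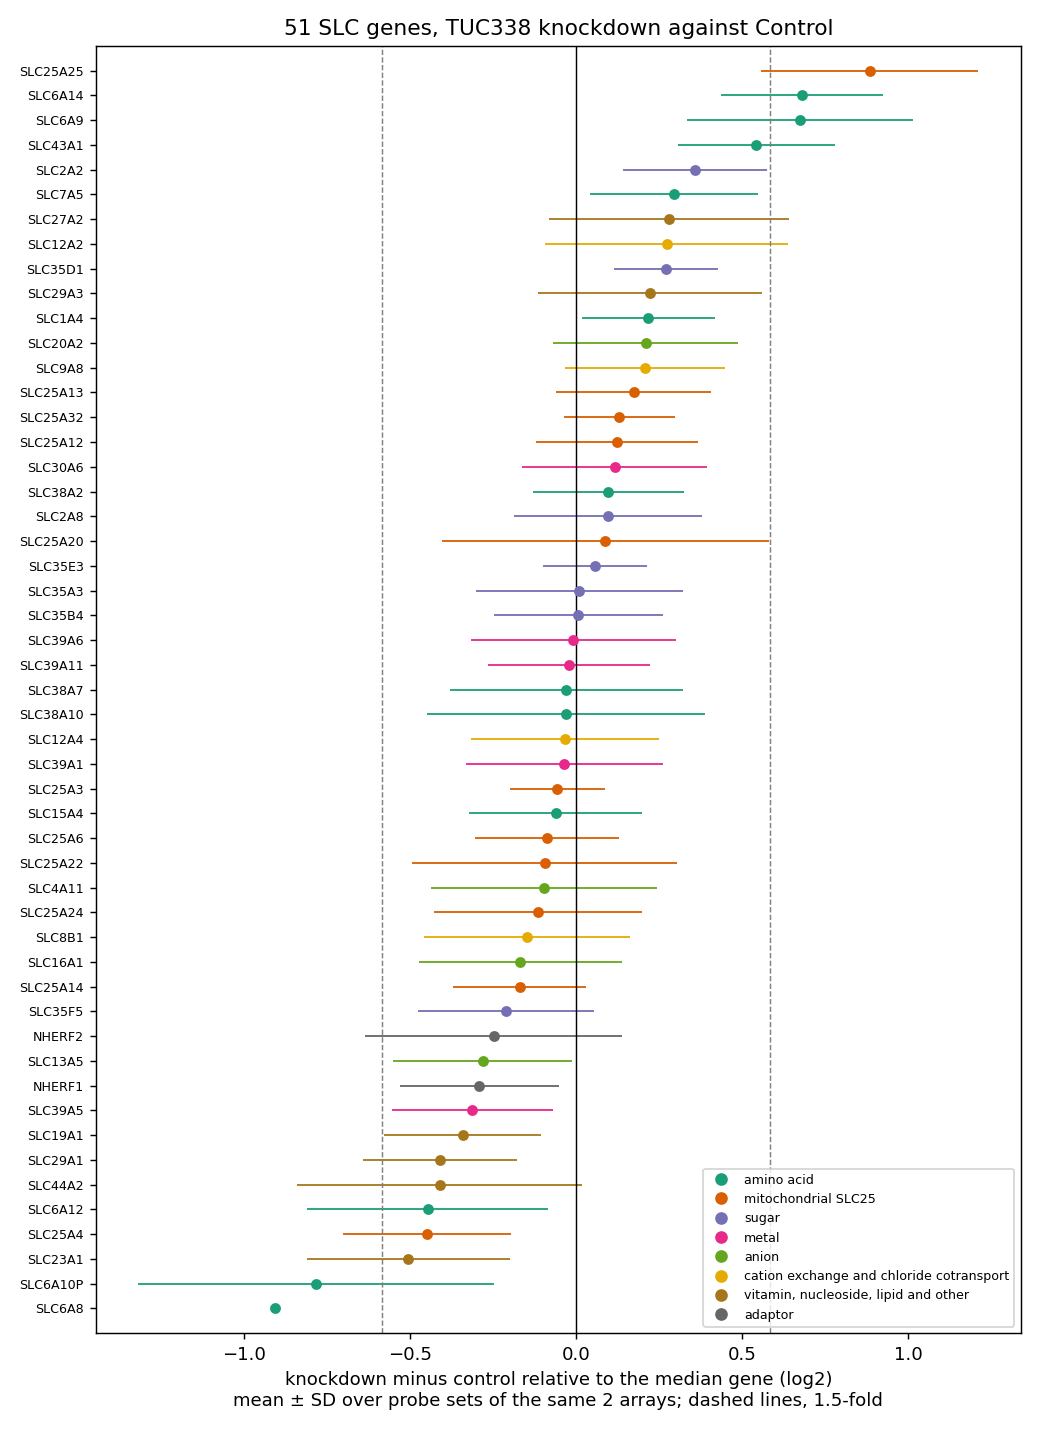
The 51 SLC genes ordered by the knockdown minus control difference relative to the median gene (log2), as the mean over probe sets with bars of 1 SD over the probe sets of the same 2 arrays, coloured by class. The dashed lines mark 1.5-fold; SLC25A25, SLC6A14 and SLC6A9 lie beyond the upper line and SLC6A8 and SLC6A10P beyond the lower one.

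Promoter sequence was examined next. The 250 bases before each RefSeq start (GRCh38.p14) were available for 45 of the 51 genes, in 66 windows. They were searched on both strands for the cyclic AMP response element TGACGTCA, the E-box CACGTG and the amino acid response core TGATGNAA, motifs chosen after the values were seen. No match overlaps another in the windows shown. The windows of SLC25A25 and SLC43A1 are shown because these members had among the largest differences and each held a match. SLC6A14 and SLC6A9, which like SLC25A25 were at least 1.5-fold higher, were not among the genes with a match. The capitals mark the match, the cyclic AMP response element in SLC25A25 (chr9:128098257-128098506, + strand) and the E-box in SLC43A1 (chr11:57515703-57515952, - strand), both printed 5′ to 3′ along the gene.
SLC25A25: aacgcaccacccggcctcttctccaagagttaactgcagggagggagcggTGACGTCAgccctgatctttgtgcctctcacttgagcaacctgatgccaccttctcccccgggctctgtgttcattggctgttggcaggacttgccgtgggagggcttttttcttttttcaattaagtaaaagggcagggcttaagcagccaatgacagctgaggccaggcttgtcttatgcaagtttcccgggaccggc
SLC43A1: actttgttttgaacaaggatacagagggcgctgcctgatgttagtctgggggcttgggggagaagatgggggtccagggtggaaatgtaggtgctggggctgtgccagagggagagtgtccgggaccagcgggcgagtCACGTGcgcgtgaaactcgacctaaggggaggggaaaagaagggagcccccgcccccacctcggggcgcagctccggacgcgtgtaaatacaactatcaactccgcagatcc

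The match began 200 bases before the start in SLC25A25, in 1 of its 3 annotated starts, and 112 bases before it in SLC43A1, in 1 of 2. The windows used for comparison cover 27305 genes, not only those of the measured table. The cyclic AMP response element was present in 3 of the 66 SLC windows, or 4.55%, and in 1.65% of all 35116 windows. The other 2 genes that held it, SLC35F5 and SLC39A1, had means of -0.21 and -0.04. The E-box was in 6 of the 66 windows, or 9.09%, and in 6.34% of all windows. Its genes included both higher and lower members, with SLC43A1 at 0.54, SLC7A5 at 0.30 and SLC29A1 at -0.41. The amino acid response core was in none of the 66 windows and in 3.14% of all windows. These matches describe the letters of the windows, and binding of a factor was not measured.

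The amino acid class had the widest spread of the classes. Its 12 genes, 11 carriers and the pseudogene SLC6A10P, came from families SLC1, SLC6, SLC7, SLC15, SLC38 and SLC43. Of the 12 genes, 6 lay above and 6 below the median gene, with a median of 0.03 and an SD over genes of 0.52. They included 4 of the 5 genes past 1.5-fold. The lower 2 of those 4 were SLC6A8, a creatine carrier placed here by family number, and SLC6A10P, its nearly identical pseudogene. The median stayed above 0 in every alternative setting, from 0.02 with the values read as log2 to 0.32 in deposited values.

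SLC6A14 encodes a sodium- and chloride-coupled carrier of neutral and cationic amino acids. Its log2 intensity, as a mean, came to 9.55 in the knockdown against 8.58 in the control, a deposited difference of 0.97, which is 0.68 ± 0.24 (SD, 18 probe sets) relative to the median gene, or 1.60-fold. The values with an SD below are on that relative scale, after the 0.28 of the median gene is taken off. All 18 probe sets lay above the median gene, from 0.22 to 1.13. The probe set with the lowest difference was also the brightest, at 11.03 in the knockdown against 10.53 in the control. SLC6A9, the glycine transporter GLYT1, had 8.56 in the knockdown against 7.60 in the control, or 0.68 ± 0.34 (SD, 6 probe sets). Its 6 probe sets ran from 0.08 to 1.01, and the lowest of them was again the brightest. The mean level of SLC6A9 over both arrays was at percentile 16.3 of the genes in the table.

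SLC43A1, a sodium-independent carrier of branched and aromatic amino acids (LAT3), had 9.71 in the knockdown against 8.89 in the control, 0.54 ± 0.24 (SD, 16 probe sets). It was just short of 1.5-fold, with all 16 probe sets above the median gene, from 0.15 to 0.97. SLC7A5, the light chain of the leucine exchanger LAT1, had 11.44 in the knockdown against 10.86 in the control, with 16 of 17 probe sets above the median gene and 1 at -0.44. The heavy chain that carries it to the cell surface, SLC3A2, is not among the 51 genes because its 17 probe sets are also listed to LOC442497. Those 17 shared probe sets averaged 10.90 in the knockdown against 10.09 in the control, 0.52 ± 0.25 (SD), and all 17 were above the median gene. Both chains of this exchanger thus had nearly all of their probe sets on the higher side, with the limit that the heavy chain's probe sets are not specific to it.

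SLC1A4, an exchanger of alanine, serine and cysteine, had 9.66 in the knockdown against 9.16 in the control, 0.22 ± 0.20 (SD, 14 probe sets), with 13 above the median gene. Smaller means were seen in the SLC38 family of neutral amino acid carriers. SLC38A2, the glutamine and alanine carrier SNAT2, had 12.54 in the knockdown against 12.16 in the control, and 16 of its 25 probe sets lay above the median gene, with a mean of 0.10. SLC38A7 and SLC38A10 were both at -0.03, and their probe sets were divided, 8 of 16 and 6 of 14 above the median gene. The probe sets of SLC38A10 spread from -1.12 to 0.49, and the lowest of them was the brightest, at 10.20 in the knockdown against 11.04 in the control. SLC15A4, a lysosomal carrier of histidine and peptides, was at -0.06 ± 0.26 (SD, 10 probe sets).

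The lowest genes of this class, SLC6A8, SLC6A10P and SLC6A12, belong to the SLC6 family as do SLC6A9 and SLC6A14. SLC6A8, the creatine transporter, had 9.24 in the knockdown against 9.87 in the control at the 2 probe sets listed to it alone, which gave -0.91 and -0.90. SLC6A10P had 7.32 in the knockdown against 7.82 in the control, a mean of -0.78 ± 0.54 (SD) over 3 probe sets that ran from -1.39 to -0.37. Both genes rest on few probe sets, and of the 50 genes in the table with fewer than 4, 11 or 22% were at least 1.5-fold lower. A further 20 probe sets are listed to SLC6A8 and SLC6A10P together, since the pseudogene is nearly identical. They averaged 8.33 in the knockdown against 9.04 in the control, -0.997 ± 0.18 (SD), or 2.0-fold lower, and none of the 20 lay above the median gene. All of the 25 probe sets of this pair were thus lower, also in deposited values, but most cannot be ascribed to either copy. SLC6A12, the betaine and GABA transporter BGT1, had 7.61 in the knockdown against 7.77 in the control, -0.45 ± 0.36 (SD, 11 probe sets), with 10 of the 11 below the median gene. Mean levels over both arrays were low for SLC6A12 and SLC6A10P, at percentiles 4.3 and 2.7 of the genes in the table.

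**Figure D3:**
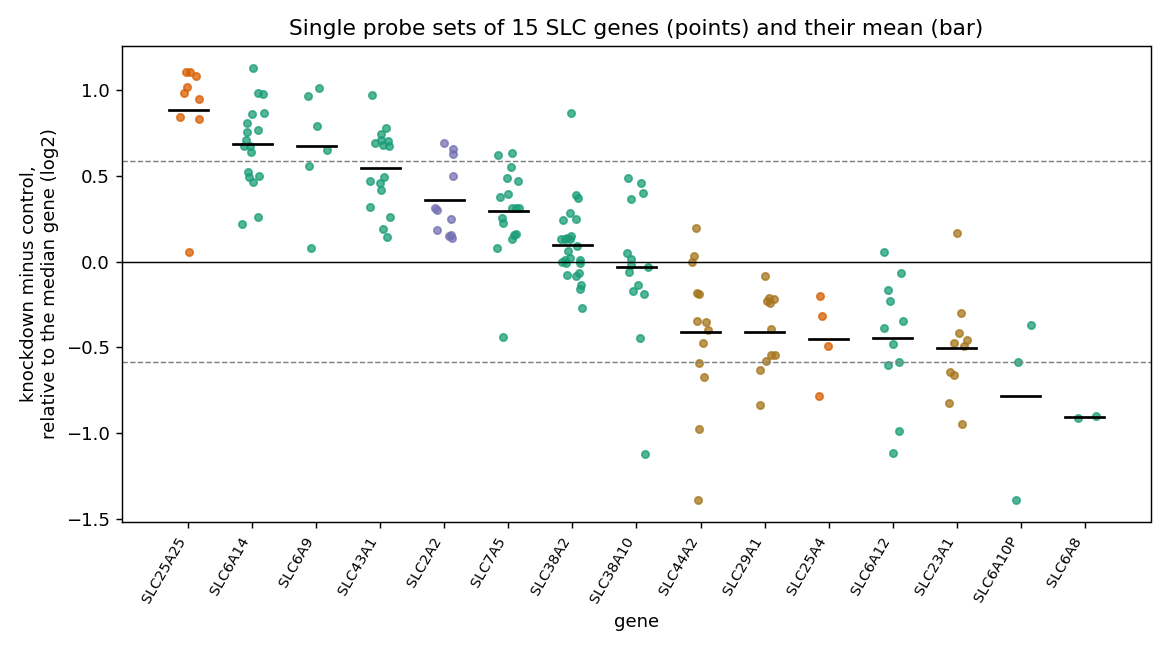
Knockdown minus control difference relative to the median gene (log2) at each probe set (points, coloured by class, spread sideways for legibility) and the mean (bar) of 15 SLC genes, with dashed lines at 1.5-fold. SLC25A25 has 8 probe sets between 0.83 and 1.11 and 1 at 0.06, and the probe sets of SLC38A10 lie on both sides of 0.

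Mitochondrial carriers of the SLC25 family lay near the median gene with the exception of 2 of the 11. The class median was -0.06, which turned positive with the median over probe sets (0.11), the brightest probe set (0.10), without dim probe sets (0.00058), with a level floor (0.04) and in deposited values (0.23). Of the 11 means, 9 were within 0.2 of the median gene.

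SLC25A25, a calcium-regulated carrier that exchanges ATP-magnesium for phosphate (SCaMC-2), had the highest mean of the 51 genes. Its log2 intensity, as a mean, came to 8.71 in the knockdown against 7.54 in the control, which is 225% of the control in deposited values and 0.88 ± 0.33 (SD, 9 probe sets) relative to the median gene, or 1.85-fold. That mean was at percentile 99.5 of all genes, while the gene's mean level over both arrays was at percentile 17.8. Its probe sets did not agree throughout: 8 lay between 0.83 and 1.11. The brightest by the mean of both arrays, at 8.84 in the knockdown against 8.50 in the control, lay at 0.06. Other probe sets were brighter on the knockdown array alone, up to 9.19. SLC25A24, the related carrier SCaMC-1, had 8.30 in the knockdown against 8.13 in the control, -0.11 ± 0.31 (SD, 12 probe sets), and 9 of the 12 lay below the median gene.

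SLC25A4 and SLC25A6, which encode isoforms of the ADP/ATP carrier, differed in their values. SLC25A4 had 8.25 in the knockdown against 8.41 in the control, -0.45 ± 0.25 (SD) with all 4 probe sets below the median gene, from -0.78 to -0.20. SLC25A6 had 11.43 and 11.23, and its mean of -0.09 ± 0.22 (SD, 12 probe sets) was near the median gene. The phosphate carrier SLC25A3, the other import route for ATP synthesis, lay at -0.06 ± 0.14 (SD, 9 probe sets), the smallest SD among the 49 SLC genes with at least 4 probe sets. Of the aspartate-glutamate carriers of the malate-aspartate shuttle, SLC25A13 (citrin, the liver form) had 10.32 in the knockdown against 9.87 in the control, with 13 of 19 probe sets above the median gene and a mean of 0.17. SLC25A12 had 14 of 20 above it and a mean of 0.12. SLC25A32, a folate and FAD carrier, had 8 of 10 probe sets above and a mean of 0.13 ± 0.17 (SD). The carnitine-acylcarnitine carrier SLC25A20 averaged 0.09 with the widest spread of these 49 genes (SD 0.49, 6 probe sets, from -0.85 to 0.53). The glutamate carrier SLC25A22 was at -0.09 and SLC25A14, an uncoupling protein relative, at -0.17 on 5 probe sets each.

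Of the 7 sugar carriers 6 were above the median gene, where 50% of all genes lie by construction. For SLC35A3 and SLC35B4 the excess was only 0.01 and 0.0071. The class median of 0.06 was above 0 in every setting run. SLC2A2 encodes GLUT2, the low-affinity glucose carrier of hepatocytes. It had 9.87 in the knockdown against 9.23 in the control, a mean of 0.36 ± 0.22 (SD, 11 probe sets) or 1.28-fold, and all 11 probe sets were above the median gene, from 0.14 to 0.69. SLC2A8, the intracellular hexose carrier GLUT8, was at 0.10 ± 0.28 (SD, 12 probe sets) with 7 above.

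The SLC35 genes of nucleotide sugar carriers and their relatives filled the rest of the class. SLC35D1, which supplies UDP-glucuronic acid and UDP-N-acetylgalactosamine to the endoplasmic reticulum, had 9.40 in the knockdown against 8.85 in the control, 0.27 ± 0.16 (SD, 10 probe sets), with 9 above the median gene. SLC35A3, a Golgi UDP-N-acetylglucosamine carrier, SLC35B4 and SLC35E3 had means of 0.01, 0.0071 and 0.06, each with 4 probe sets above the median gene of 8, 7 and 7. SLC35F5 had 10.17 and 10.10, and was the lower member at -0.21 ± 0.26 (SD, 15 probe sets), with 3 above. In deposited values SLC35F5 was 0.07 higher on the knockdown array, and at its brightest probe set it lay at 0.02.

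Metal carriers had means near the median gene except for SLC39A5. The 5 genes, all of zinc carrier families, had a median of -0.02, which was -0.21 at the brightest probe sets and 0.26 in deposited values. SLC39A5, a ZIP zinc importer of liver, gut and pancreas, had 8.64 in the knockdown against 8.67 in the control, -0.31 ± 0.24 (SD, 11 probe sets), with 10 of the 11 below the median gene. The ZIP members SLC39A1 (-0.04), SLC39A11 (-0.02) and SLC39A6 (-0.0084) had 3 of 6, 4 of 11 and 7 of 14 probe sets above it. By its brightest probe set SLC39A1 was at -0.39, and without dim probe sets at -0.15. The zinc carrier of the secretory pathway SLC30A6 was at 0.12 ± 0.28 (SD, 16 probe sets) with 9 above, and at -0.15 by its brightest probe set.

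Anion carriers had 3 of 4 genes below the median gene and a median of -0.13, while in deposited values all 4 were brighter on the knockdown array and the median was 0.15. SLC13A5, the plasma membrane citrate carrier of hepatocytes, had 9.83 on both arrays, a mean of -0.28 ± 0.27 (SD, 15 probe sets) with 13 of the 15 below the median gene. SLC16A1, the lactate and pyruvate carrier MCT1, had 10.29 in the knockdown against 10.17 in the control, -0.17 ± 0.31 (SD, 8 probe sets), with 6 below. SLC4A11, placed here by its bicarbonate carrier family, lay at -0.10 with 8 of 20 probe sets above. SLC20A2, a sodium-phosphate cotransporter, was the higher member, with 9.88 in the knockdown against 9.38 in the control, 0.21 ± 0.28 (SD, 15 probe sets), and 13 above the median gene.

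Cation exchangers and chloride cotransporters were divided 2 and 2. Their median of 0.09 turned to -0.03 with a level floor, which left 1 gene, SLC12A4. SLC12A2, the sodium-potassium-chloride cotransporter NKCC1, had 8.93 in the knockdown against 8.37 in the control, 0.27 ± 0.37 (SD, 26 probe sets), with 21 above the median gene. SLC12A4, the potassium-chloride cotransporter KCC1, carries potassium and chloride outward and had 12 of 24 probe sets above, with a mean of -0.03. SLC9A8, a sodium-proton exchanger of the Golgi, was at 0.21 ± 0.24 (SD, 11 probe sets) with 9 above. It was at 0.07 without dim probe sets and at 0.32 by its brightest probe set. SLC8B1, listed as SLC24A6 and encoding the mitochondrial sodium-calcium exchanger, was at -0.15 ± 0.31 (SD, 11 probe sets) with 3 above.

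**Figure D4:**
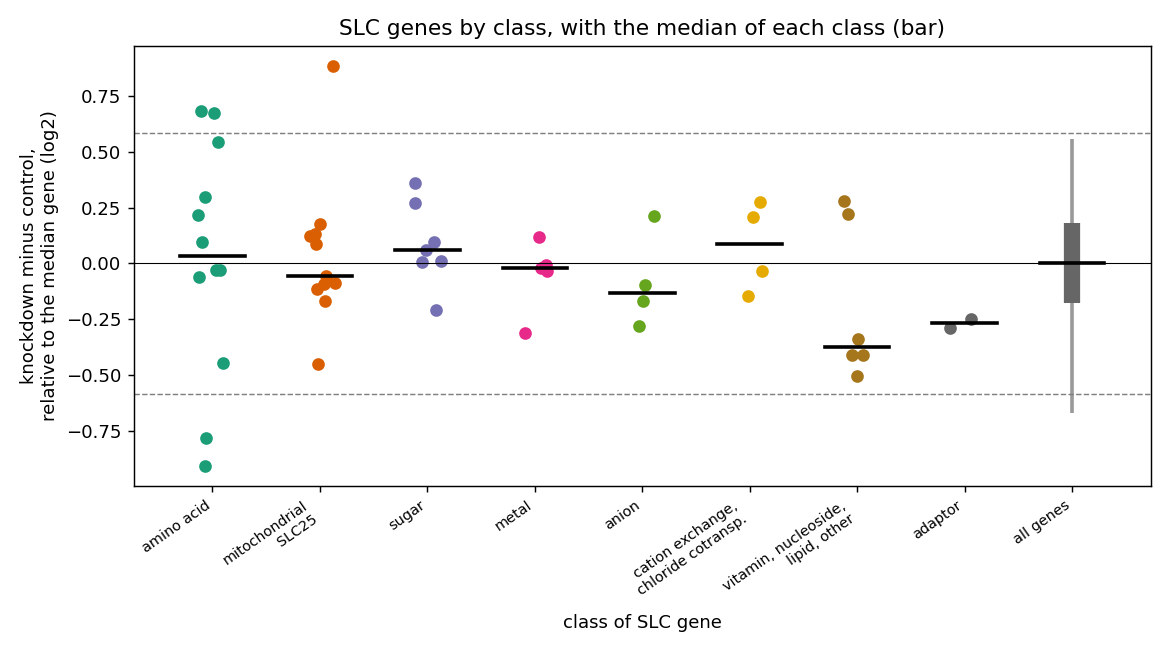
Knockdown minus control difference relative to the median gene (log2) of each SLC gene (points) by class, with the class median (black bar). For all genes the thin grey line spans the 2.5th to 97.5th percentiles (-0.67 to 0.56) and the thick one the quartiles (-0.18 to 0.18); the amino acid class spans -0.91 to 0.68 and 4 of the 6 vitamin, nucleoside, lipid and other genes lie below -0.3.

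Carriers of vitamins, nucleosides, choline and fatty acids had the lowest class median of the 7 carrier classes, -0.38 over 6 genes. It was below 0 in every setting, and smallest in deposited values at -0.09, where 4 of the 6 genes were dimmer on the knockdown array. The level floor left 1 gene of this class, SLC29A1, so the value of -0.41 there is that of a single gene. SLC23A1, the vitamin C transporter SVCT1, had 7.87 in the knockdown against 8.09 in the control, -0.51 ± 0.31 (SD, 10 probe sets), or 1.42-fold lower, with 9 of the 10 below the median gene. Its level was among the lowest 12.6% of genes in the table. Without dim probe sets SLC23A1 was at -0.65, past 1.5-fold. SLC29A1, the equilibrative nucleoside transporter ENT1, had 9.78 in the knockdown against 9.91 in the control, -0.41 ± 0.23 (SD), and all 11 probe sets were below the median gene, from -0.84 to -0.09. SLC29A3, the lysosomal member of the same family, was at 0.22 ± 0.34 (SD, 10 probe sets) with 6 above. Its value depended on the setting: 0.05 without dim probe sets, 0.07 by the brightest probe set and 0.32 with the median over probe sets.

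SLC19A1, the reduced folate carrier, had 8.57 in the knockdown against 8.63 in the control, -0.34 ± 0.24 (SD), and its 6 probe sets were all below the median gene. SLC44A2, a choline transporter-like protein, had 8.04 in the knockdown against 8.16 in the control, -0.41 ± 0.43 (SD, 13 probe sets). Its probe sets were spread from -1.39 to 0.20 and 11 of the 13 were below the median gene. SLC27A2, a fatty acid transport protein with very-long-chain acyl-CoA synthetase activity, was the highest of the class, with 8.92 in the knockdown against 8.35 in the control, 0.28 ± 0.36 (SD, 8 probe sets) and 6 above.

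The scaffold genes lay below the median gene, with deposited values near 0. NHERF1 had 9.69 in the knockdown against 9.70 in the control, -0.29 ± 0.24 (SD, 13 probe sets), and 10 of the 13 were below the median gene, but its brightest probe set lay at 0.09. NHERF2 was at -0.25 ± 0.39 (SD, 7 probe sets) with 5 below.

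Genes that work with solute carriers or are carriers under another name were compared from a list of 70, of which 13 were in the table beside NHERF1 and NHERF2. Their median was -0.01, with 5 above and 8 below the median gene and none at 1.5-fold. WNK1, a kinase that regulates cation-chloride cotransporters, had 8.64 in the knockdown against 8.86 in the control, -0.51 ± 0.26 (SD), with 43 of the 44 probe sets lower than the median gene. STK39, the kinase that WNK1 activates, was near the median gene at -0.07 ± 0.25 (SD, 16 probe sets). SLCO4A1, an organic anion carrier, was at -0.50 ± 0.30 (SD) with 11 of 12 probe sets below. SFXN2, a sideroflexin of mitochondria, was at -0.30 and CTNS, the lysosomal cystine exporter, at 0.21. ATP1B1 and ATP1B3, subunits of the sodium pump that maintains the gradient used by sodium-coupled carriers, lay at 0.14 and 0.18.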

How the data were processed

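The authors deposited a table of 45200 probe sets by 2 arrays, 1 per condition. The labels name no normalization, software or build for it. The deposited values were read as natural log intensities and divided by the natural log of 2: on the knockdown array 1154 of 41367 exponentials under 2000 shared the commonest remainder after division by 0.5 (to within 0.001), where 82.7 would be average, and as log2 values at most 117 did.

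The platform annotation gave 1 symbol for 42575 probe sets, and 1055 with several and 1570 with none were left out. Of 2795 symbols, 331 were updated through RefSeq (GRCh38.p14) and 15 kept. Each gene is the mean over its probe sets, relative to the median over 2792 genes. Classes were set by SLC family number. Named were genes past 1.5-fold, the 15 highest and 15 lowest with at least 4 probe sets and up to 4 per class (38 genes); the other members were added by name after their values were seen. Members and lists were chosen with earlier results of these data known. With 1 array per condition there was no test. The number of arrays limits the precision. The procedure was tested on simulated data with independent spread between probe sets. Those data held no spread between cultures, so they cannot speak to the limit of 1 array per condition. Python 3.11.15, pandas 2.3.3 and statsmodels 0.14.6 were used.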

Additional observations from a re-analysis of the deposited data

How the results depend on the processing

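Of 38 named genes, 31 kept their direction in all the settings that centre the differences, and 7 turned in at least 1, each at its brightest probe set. These 7 were NHERF1, SLC12A4, SLC25A24, SLC30A6, SLC35F5, SLC39A11 and SLC8B1, of which SLC12A4 also turned with the median over probe sets. No gene past 1.5-fold changed sign. The counts at 1.5-fold, 3 higher and 2 lower, depended on the setting. Without dim probe sets 4 were higher, with SLC43A1 at 0.60, and 2 lower. These 2 were SLC6A8 at -0.89 and SLC23A1 at -0.65, as SLC6A10P had no probe set left. By the brightest probe set 0 were higher and 3 lower (SLC38A10 besides SLC6A8 and SLC6A10P), and the class medians were -0.041 (scaffolds), -0.21 (metal), 0.10 (SLC25) and -0.24 (vitamin, nucleoside, lipid and other). A level floor gave 1 higher and 1 lower and class medians of 0.22 (amino acid) and -0.034 (cation and chloride), with fewer genes. At least 4 probe sets left 0 lower and an amino acid median of 0.16, since SLC6A8 and SLC6A10P have fewer. Without the scaffolds and pseudogene, added after seeing the data, 1 was lower. Deposited values gave 5 higher, 1 lower, a median over the SLC genes of 0.25, 80.4% above 0, and class medians of 0.014 (scaffolds), 0.32 (amino acid), 0.15 (anion), 0.37 (cation and chloride), 0.26 (metal), 0.23 (SLC25), 0.34 (sugar) and -0.092 (vitamin, nucleoside, lipid and other), because the median gene itself is 0.28 higher. Read as log2 values, 1 was higher and 1 lower and the last class median was -0.26. The median over probe sets moved the SLC25 median to 0.11; the cause was not tested. Quantile normalization, loess and the assignment of shared probe sets, the last added after seeing the data, left the counts at 3 and 2. No paired analysis was possible because each group has 1 array. The background level of the arrays was not analysed here, and 11 of the 51 genes had a mean level below the 25th percentile of all genes.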
